A study of Mus musculus with 384 samples.

Results

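Ccr7, Ccr9 and Cxcr4 are 3 chemokine receptors, and their assays are 3 of the 96 TaqMan assays read in single common lymphoid progenitors (CLPs) of mouse bone marrow. They were taken by name: Ccr7 (CD197) and Cxcr4 (CD184) carry their symbols in the data, and the Ccr9 assay carries the name CDw199, which is used here. All cells came from wild-type C57/Bl6 mice and were sorted as CLPs, negative for lineage markers and B220, positive for Flt3 and Il7r, and low for Kit and Sca1. The labels give neither the age of the mice nor which plate came from which animal. Each of 4 plates, P0 to P3, held 90 wells with 1 cell, 4 wells run without reverse transcriptase (no-RT), 1 well with 10 cells and 1 well with 20 cells. A value is a Ct, the cycle at which the product crossed the detection threshold, so a lower Ct means more product. A Ct below 28 was called a product, and the level is 28 minus Ct, in cycles, where 1 cycle is a doubling if amplification is complete.

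Chemokine receptors are G protein-coupled receptors that steer cells along gradients of secreted chemokines. Cxcr4 binds Cxcl12 made by marrow stroma and holds haematopoietic cells in the marrow, Ccr9 binds Ccl25 made by thymic epithelium and small intestine, and Ccr7 binds Ccl19 and Ccl21 of lymphoid organs and thymus. Ccr7 and Ccr9 are known as receptors with which marrow progenitors can enter the thymus, while Cxcr4 is also used by early B lineage cells. The CLP gate holds cells that differ in how far B lineage genes are on, and the receptors are set here against B and T lineage genes of the same cells.

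After quality control 347 of 360 single cells remained, 86 on P0 and 87 on each other plate, with a product for 22 to 54 assays (median 43). None of the 13 wells left out had a product of any of the 3 receptors. No-RT wells had a product for 1 to 9 assays (median 6.5). The identity of the cells could be checked with 1 sort marker: Kit was detected in 97.4% ± 1.09 (mean ± SD over 4 plates, as for all shares and levels). Of the T cell markers, Cd3e and Cd2 gave no product in any kept cell, Cd8a was detected in 0.575% ± 0.664 and Cd4 in 10.9% ± 3.54. The plate was the replicate (n = 4). Nothing in the labels ties a plate to an animal, so the p-values measure how plates differ, and that spread can be technical.

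The 3 assays differed in whether a product needed reverse transcription. Ccr7 gave a product in 0 of 16 no-RT wells, CDw199 in 14 and Cxcr4 in 13. Of all 96 assays, 87 gave no product in any no-RT well and 8 did so in 4 or more, among them Cd24a in 13, Fut4 in 12, Nfil3 in 12, Cd68 in 11 and Cebpa in 7. CDw199 and Cxcr4 thus belonged to the few assays in which a product in a cell does not by itself show a transcript.

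**Figure D1:**
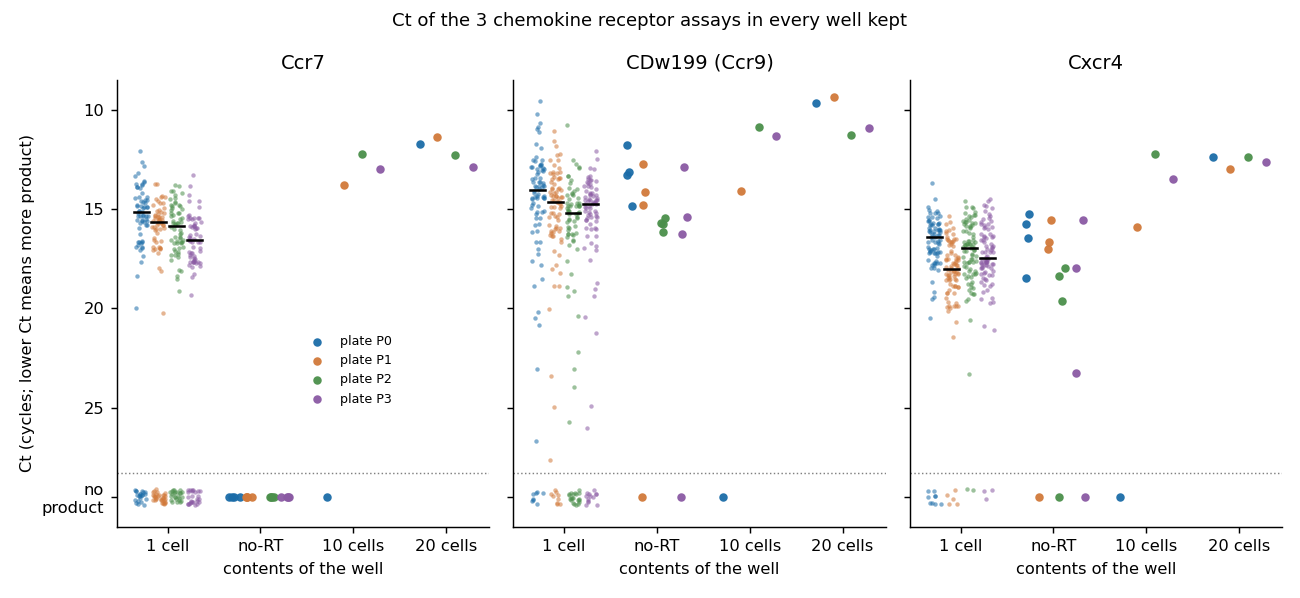
Ct (cycles, axis turned so that more product is higher) of Ccr7, CDw199 and Cxcr4 in every kept well, by contents of the well and coloured by plate; black bars are plate medians of single cells with a product, and wells without a product lie under the dotted line. Ccr7 has no product in any of the 16 no-RT wells, whereas the no-RT points of CDw199 (14 wells) and Cxcr4 (13 wells) lie among the single cells.

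Ccr7 was detected in 69.8% ± 4.72 of single cells. The shares were 74.4% on P0, 63.2% on P1, 71.3% on P2 and 70.1% on P3, or 242 of 347 cells (exact 95% binomial interval 64.6% to 74.5%, counting error only). No plate fell below 63.2%, and the 0 of 16 no-RT wells allow a share of up to 20.6% (exact limit, also counting error only). In limma over 88 assays, detection of Ccr7 was higher in cells than in no-RT wells (adjusted p = 9.33e-09). The no-RT shares were 0% on each plate, with no spread between them, so this p leaves out their counting error. On a single plate, 0 of 4 no-RT wells allow a share of up to 60.2% (exact limit). Of those 88 assays, 84.1% were called higher and 0% lower, so the call places Ccr7 with most of the panel. By share of cells it ranked 35 of 96, between the broadly detected assays and those found in few cells.

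Among cells with a product, the Ccr7 level was 12.10 ± 0.52 cycles. The median Ct was 15.17 on P0, 15.65 on P1, 15.87 on P2 and 16.58 on P3, and single cells ran from 12.1 to 20.2. Only 1 of the 242 cells had a Ct above 20, so a Ccr7 product was either clearly above the threshold for a product or missing. The SD between cells of a plate was 1.24 cycles on average. The plates overlapped widely.

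CDw199 was detected in 85.3% ± 6.76 of single cells and in 87.5% ± 14.4 of no-RT wells. The cells gave 90.7% on P0, 89.7% on P1, 75.9% on P2 and 85.1% on P3, and the no-RT wells 4, 3, 4 and 3 of 4. Cells and no-RT wells overlapped, and the difference of -2.18 percentage points was not past the threshold (adjusted p = 0.450, limma). Leaving out P0 or P2 turned its sign, with adjusted p between 0.263 and 0.991 without any 1 plate.

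The level of CDw199 did not place the cells above the no-RT wells either. Cells with a product had 13.43 cycles on P0, 12.78 on P1, 12.19 on P2 and 12.61 on P3. No-RT wells with a product had 14.74, 14.11, 12.21 and 13.14 cycles on the same plates. On each plate the mean of the cells was the lower, by 0.023 to 1.33 cycles, although both groups overlapped across plates. The mean difference was -0.80 cycles (95% interval -2.45 to 0.85, adjusted p = 0.539 in limma), and of the 7 assays that could be compared in this way 28.6% were called higher and 0% lower. Of the 2 called, Cd24a was 2.72 cycles higher in cells, so the comparison can separate cells from no-RT wells where the gap is that wide. With median in place of mean levels the CDw199 difference was -0.041 cycles.

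CDw199 had a wider spread between cells than between no-RT wells. Its Ct in cells ran from 9.58 to 27.6, with 18 cells above a Ct of 20, and in no-RT wells from 11.8 to 16.3 (median 14.8). The SD between wells of a plate was 2.61 cycles in cells and 1.09 cycles in no-RT wells. In 10 cells (2.88%) the Ct lay below the lowest no-RT Ct of all plates: 7 on P0, 2 on P1, 1 on P2 and 0 on P3. A further 59 cells lay above the highest no-RT Ct of all plates and 51 had no product. Thus 227 of 347 cells fell inside the range of the no-RT wells of all plates together. Against the no-RT wells of their own plate, 7, 7, 38 and 2 cells on P0 to P3 lay below the lowest Ct. Inside that range were 46, 35, 8 and 58 cells, and above it 25, 36, 20 and 14, so the reading differed by plate.

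Cxcr4 was detected in 94.5% ± 3.61 of single cells and in 81.3% ± 12.5 of no-RT wells. The cells gave 89.5% on P0, 94.3% on P1, 97.7% on P2 and 96.6% on P3, and the no-RT wells 4, 3, 3 and 3 of 4. Only on P0 was the no-RT share the higher. The difference of 13.3 percentage points was not past the threshold (adjusted p = 0.269, limma), and with any Ct below 40 as a product it was 7.01 points (adjusted p = 0.852). Without P0, where all 4 no-RT wells had a product, it was 21.2 points with an adjusted p of 8.67e-05; the no-RT shares of the other plates are then all 75.0%, with no spread between them. All 16 no-RT wells together allow a share of up to 96.0% (exact limit), and the lowest plate, at 89.5%, missed it by 6.42 points (a difference of -6.42).

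In level, Cxcr4 cells with a product had 11.39 cycles on P0, 10.00 on P1, 10.87 on P2 and 10.73 on P3. No-RT wells had 11.53, 11.59, 9.35 and 9.07 cycles. Cells were the lower on P0 and P1 and the higher on P2 and P3. The mean difference was 0.36 cycles (95% interval -1.42 to 2.14, adjusted p = 0.663), and it turned to -0.022 without P2 and -0.069 without P3. Single-cell Ct ran from 13.7 to 23.3 and no-RT Ct from 15.2 to 23.3, with 1 further no-RT well at 29.1 that was counted as no product. In 20 cells (5.76%) the Ct lay below the lowest no-RT Ct, 8 on P0, 0 on P1, 6 on P2 and 6 on P3. Of all 347 cells, 307 lay inside the range of the no-RT wells of all plates together. Against the no-RT wells of their own plate, 8, 1, 62 and 10 cells on P0 to P3 lay below the lowest Ct. Inside that range were 64, 19, 20 and 74 cells, and above it 5, 62, 3 and 0, so P1 and P2 went opposite ways.

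The distance between both receptors within a well was also compared, a comparison chosen after the data had been seen. The Cxcr4 Ct exceeded the CDw199 Ct by 2.02 ± 0.59 cycles over plates in 286 cells with both products and by 2.80 ± 0.31 in 12 no-RT wells. The plate means of the cells were 2.28, 2.63, 1.26 and 1.90, and those of the no-RT wells 3.22, 2.52, 2.85 and 2.61. Only P1 had the larger distance in cells, and the groups of plate means overlapped. Over the 4 plates of each group the cells were nearer by 0.78 (a difference of -0.78 cycles), with p = 0.0857 in an exact permutation test, two-sided, whose smallest possible p is 0.0286. That test took the plate means as unpaired, although cells and no-RT wells share plates, and a paired version was not run. Whether the product of these assays in cells came from transcripts, from template present without reverse transcription, or from both cannot be told apart in these wells.

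Wells with 10 or 20 cells had a lower Ct than the median single cell of their plate for all 3 assays, the 10-cell well of P0 apart. In wells with 20 cells the Ct was 12.08 ± 0.66 for Ccr7, 10.32 ± 0.93 for CDw199 and 12.60 ± 0.29 for Cxcr4. Against the Ct that 20 average single cells of the plate would give, wells without a product counted as 0, these values were later by 0.47 ± 0.61, 0.39 ± 0.57 and 0.12 ± 0.26 cycles. Each of the 3 gaps was smaller than its SD over plates. In wells with 10 cells the Ct was 13.02 ± 0.77, 12.10 ± 1.73 and 13.88 ± 1.86 over P1 to P3, and the P0 well, which had a product for 29 assays, was at 40 for all 3 receptors.

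Of the 347 cells, 198 had a product of all 3 receptors, 88 of CDw199 and Cxcr4 without Ccr7, and 34 of Ccr7 and Cxcr4 without CDw199. Only 2 cells had Ccr7 alone, 2 had CDw199 alone, 8 had Cxcr4 alone and 8 had Ccr7 and CDw199 without Cxcr4. No product of any of them was found in 7 cells, where the plate shares taken as independent give 0.677. Ccr7 and CDw199, the pair linked to thymus entry, were found together in 206 cells against 206.3 expected, and their log2 odds ratio within plates was 0.12 ± 0.70. Ccr7 and Cxcr4 were found together in 232 cells against 228.6 expected, with a log2 odds ratio of 0.69, 1.34, 1.33 and 2.04 on P0 to P3 (mean 1.35 ± 0.55), above 0 on each plate. In the test of pairs without the no-RT filter this was not called (adjusted p = 0.110). Most no-RT wells also gave a product of CDw199 and of Cxcr4. Counts with these assays therefore do not show which receptor transcripts a cell held together.

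Co-detection with Ccr7 was tested as the log2 odds ratio within each plate, for 49 genes, those detected in 5% to 95% of the kept cells and yielding a product in at most 3 no-RT wells. Of 1176 pairs, limma called 2.98% higher and 1.62% lower at an adjusted p under 0.05, and of the 48 pairs with Ccr7 it called 1 higher and 0 lower. Of those 48, 33 had a log2 odds ratio above 0, against 55.6% of all pairs. The share of Ccr7 pairs called was therefore near that of the panel.

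The called partner was FOX01, the assay for Foxo1, a transcription factor that B lineage cells need and that acts on homing receptors and on Il7r. Of the 347 cells, 215 had both products, 27 only Ccr7, 71 only FOX01 and 34 neither, where independence within plates gives 199.0 with both. The log2 odds ratio was 2.43 on P0, 1.49 on P1, 1.53 on P2 and 2.44 on P3, a mean of 1.97 ± 0.54 (adjusted p = 0.0246). All plates lay well above 0. With cells split at their plate's median number of assays it was 1.43 (adjusted p = 0.0337). Without any 1 plate it stayed between 1.82 and 2.13, but each time the adjusted p rose above the threshold, to between 0.0512 and 0.157.

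**Figure D2:**
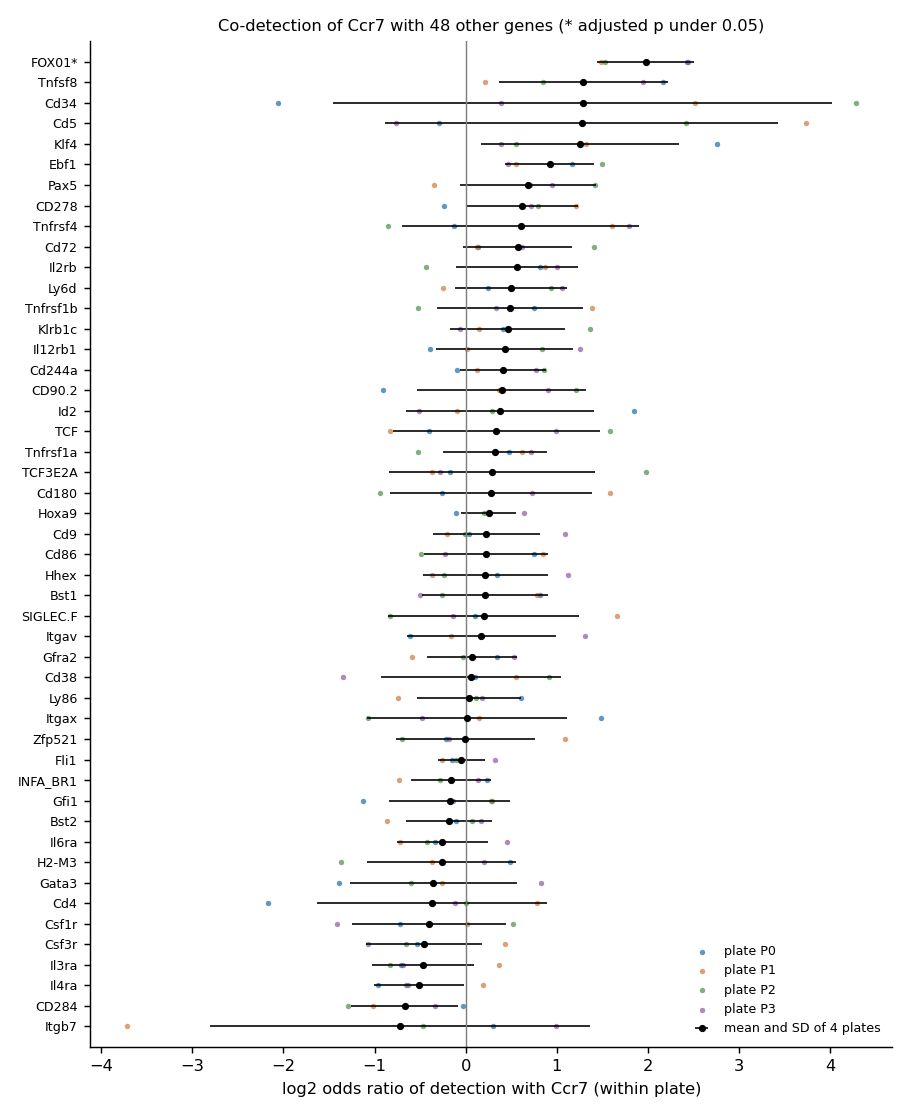
Log2 odds ratio (horizontal axis) of a Ccr7 product with a product of each of 48 other genes; coloured points are the 4 plates, black points and lines the mean and SD. FOX01 at the top, at 1.97 ± 0.54, is the only gene called, and most other means lie within 1 SD of 0.

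FOX01 was the only call within the B lymphoid list. Of 10 members measured, 5 could be tested and all 5 means were above 0, with a median log2 odds ratio of 0.68, FOX01 included, against 0.11 over all pairs. Ebf1, an early B lineage factor, was at 0.92 ± 0.49 (adjusted p = 0.298), and above 0 on 4 plates. Pax5, the factor of B lineage commitment, was at 0.68 ± 0.75, Ly6d, a surface marker of CLPs turned to the B lineage, at 0.50 ± 0.61, and TCF3E2A, the assay for the E2A gene, at 0.29 ± 1.13. Each of the last 3 was below 0 on at least 1 plate.

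Cells without Ebf1, Ly6d or Pax5 had the lowest Ccr7 share, 59.6% ± 4.54, over 62 cells. It was 68.1% ± 8.49 in 66 cells with either Ebf1 or Ly6d, 70.7% ± 4.51 in 129 cells with both, and 76.7% ± 12.0 in 90 cells with Pax5. The order of the means runs along the B lineage genes, but neighbouring classes overlapped over plates, and Pax5 cells on P1 were at 59.1%. The classes were not compared by a test.

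Of the T lymphoid list, 8 members were measured and 4 could be tested: CD90.2 (Thy1) was at 0.39 ± 0.93, Cd5 at 1.27 ± 2.16, Gata3, a T lineage and innate lymphoid factor, at -0.36 ± 0.92, and Cd4 at -0.37 ± 1.26. Their median was 0.02, 2 of the 4 were above 0, and none was called. Of the homing list, which covers integrins and other trafficking molecules, 10 members were measured and 2 tested, Itgav at 0.17 ± 0.82 and Itgb7, a chain of the gut-homing integrin, at -0.72 ± 2.08. Itga4 and Selplg were found in 99.1% and 96.8% of cells, too many for a test.

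The level of Ccr7 hardly moved with other genes. Levels were compared between cells with and without each partner product, within plates, over 1889 combinations of an assay and a partner; limma called 2.06% of them higher and 0.847% lower. Of the 37 combinations with the Ccr7 level, 0 were called, and 1 had an unadjusted p under 0.05. That was CD90.2: Ccr7 was at 12.70 ± 0.48 cycles in 59 cells with it and 11.89 ± 0.57 in 183 cells without it, a difference of 0.81 ± 0.38 with the same sign on 4 plates (adjusted p = 0.0842). Centred on the reference genes of the cell it was 0.013 (adjusted p = 0.977). With Pax5 the difference was -0.06 ± 0.14 cycles and with Ebf1 0.26 ± 0.22. The median size of the differences was 0.17 cycles for Ccr7 and 0.24 over all combinations.

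In the other direction, the levels of 49 assays were compared between cells with and without a Ccr7 product. None was called, and 3 had an unadjusted p under 0.05, against 267 higher and 88 lower of all 1889 combinations. Cd68, a myeloid gene with a product in 11 no-RT wells, was at 9.87 ± 0.34 cycles in 131 cells with Ccr7 and 10.58 ± 0.14 in 51 without it, a difference of -0.71 ± 0.23 with the same sign on 4 plates (adjusted p = 0.0842). The difference was -0.95 with the number of assays as a covariate (adjusted p = 0.0312), but -0.23 with Ct below 24 as a product (adjusted p = 0.660) and -0.19 by medians (adjusted p = 0.626).

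CDw199 had its lowest levels in cells with Pax5. The mean level in cells with Pax5 was 12.65 cycles on P0, 9.88 on P1, 9.50 on P2 and 11.49 on P3, and in cells without it 13.68, 13.65, 12.85 and 12.97. Every plate was lower with Pax5, and the 2 sets of plate means did not overlap. Over 68 and 228 cells the difference was -2.41 ± 1.35 cycles (95% interval -3.47 to -1.34, adjusted p = 0.0403, limma). By median levels it was -1.60 cycles (adjusted p = 0.0747), and without any 1 plate it ranged from -2.87 to -1.95 with an adjusted p of 0.0570 to 0.166, so the call needed all 4 plates. Centred on the reference genes of the cell it was -2.32 (adjusted p = 0.0633), and with the number of assays as a covariate -2.48 (adjusted p = 0.0271).

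The lower mean in Pax5 cells came with a tail of late Ct. Counted at a Ct above 18, a value picked after the data were seen, it held 18 of 68 Pax5 cells with a CDw199 product. The same tail held 7 of 118 cells with both Ebf1 and Ly6d, 2 of 60 with either and 4 of 50 with none of the 3. The mean levels of these classes were 10.88 ± 1.46 with Pax5, 13.20 ± 0.41 with Ebf1 and Ly6d, 13.36 ± 0.41 with either and 13.52 ± 0.68 with none. The last 3 classes lay within each other's spread, and Pax5 cells were below all of them on each of the 4 plates. A CDw199 product was found in 75.5% ± 10.9 of Pax5 cells, 91.2% ± 4.50 of cells with Ebf1 and Ly6d, 89.9% ± 12.3 with either and 81.0% ± 4.90 with none. The no-RT level of 13.55 ± 1.11 was near that of the 3 classes without Pax5, and the Pax5 class lay below the no-RT wells of its plate on all 4 plates, which was not tested.

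**Figure D3:**
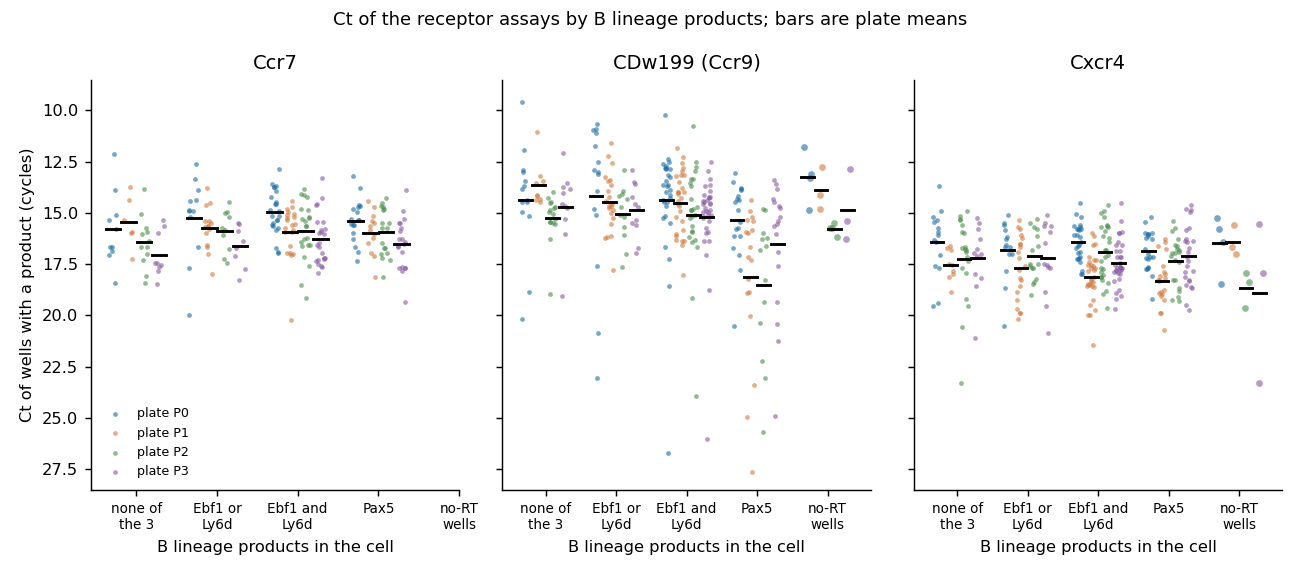
Ct (cycles, axis turned) of wells with a product, by B lineage products in the cell and in no-RT wells, coloured by plate with bars at plate means; Ccr7 has no no-RT product. The CDw199 panel shows the late-Ct tail in Pax5 cells, whose plate means of 9.50 to 12.65 level cycles are the lowest, while Ccr7 and Cxcr4 lie at like heights in all classes.

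No other B lineage gene was called for CDw199. The difference was -0.98 ± 0.42 cycles with Ly6d (adjusted p = 0.0569) and -0.87 ± 0.54 with Ebf1 (adjusted p = 0.105), both below 0 on 4 plates. By medians they were -0.62 and -0.34 (adjusted p = 0.139 and 0.496), centred on the reference genes Ebf1 was at -0.55 (adjusted p = 0.330), and with the number of assays as a covariate Ly6d was at -1.10 (adjusted p = 0.0468). FOX01 was at -0.10 ± 1.20 and TCF3E2A at 0.47 ± 0.74. Of the 5 tested members of the B lymphoid list, 1 was above 0 and 1, Pax5, was called lower, with a median of -0.87 against 0.14 over all combinations. Cells with Pax5 can also hold Ly6d and Ebf1, so these differences are not separate measurements.

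CDw199 was higher in cells with Itgax, the gene of CD11c, an integrin of dendritic and some natural killer cells. Cells with Itgax had 14.25, 13.46, 13.37 and 13.38 cycles on P0 to P3, and cells without it 13.20, 12.53, 11.87 and 12.38. Each plate was higher with Itgax, by 0.94 to 1.50 cycles. The mean difference was 1.12 ± 0.26 over 69 and 227 cells (adjusted p = 0.0292). By medians it was 0.51 (adjusted p = 0.369), with Ct below 24 as a product 0.82 (adjusted p = 0.0592), with the number of assays as a covariate 0.98 (adjusted p = 0.0590), and without any 1 plate the adjusted p was 0.0772 to 0.136. Of the dendritic markers on the panel, Itgax was found in 23.0% ± 3.33 of cells and Bst2 in 83.0% ± 1.66. With Bst2 the CDw199 difference was -0.13 ± 0.69, and the part of dendritic-type cells in the Itgax difference was not tested.

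Csf3r, a myeloid growth factor receptor, gave 0.96 ± 0.38 (adjusted p = 0.0569) and by medians 0.53 (adjusted p = 0.229), and Hoxa9, a factor of multipotent progenitors, 1.71 ± 1.18 (adjusted p = 0.0714), both above 0 on 4 plates. With Gfra2 the CDw199 difference was -1.30 ± 0.99 (adjusted p = 0.104), and with the number of assays as a covariate -1.54 (adjusted p = 0.0335). Over its 39 combinations CDw199 had 1 called higher, 1 called lower and 16 at an unadjusted p under 0.05. Of all 1889 combinations of the panel, 267 were higher and 88 lower at that unadjusted p. The median size for CDw199 was 0.47 cycles, the largest of the 3 receptors. T lineage genes were not among the 16: the difference was 0.12 ± 0.70 with CD90.2 and 0.15 ± 0.74 with Gata3.

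Cxcr4 was higher in cells with CD90.2, the T lineage and progenitor surface glycoprotein Thy1. Its level was 11.79, 11.03, 11.56 and 11.86 cycles on P0 to P3 in cells with CD90.2, and 11.22, 9.75, 10.61 and 10.47 in cells without it. The plate means with CD90.2 were the higher on each plate, and 1 of them, 11.03 on P1, lay inside the range of those without. The difference was 1.05 ± 0.37 over 78 and 250 cells (adjusted p = 0.0424). Without any 1 plate it was 0.93 to 1.21 with an adjusted p of 0.0711 to 0.167, and by medians 1.03 (adjusted p = 0.0880).

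This difference moved with the RNA yield of the cell. Centred on the reference genes it fell to 0.39 cycles (adjusted p = 0.285), and with the number of assays as a covariate to 0.75 (adjusted p = 0.0971). No other gene of the B or T lymphoid lists was called for the Cxcr4 level. The difference was -0.20 ± 0.31 with Pax5, -0.30 ± 0.42 with Ebf1, -0.03 ± 0.16 with Ly6d and 0.37 ± 0.17 with Gata3. Of these, only the Gata3 mean exceeded its SD over plates. Across the classes of B lineage products the Cxcr4 level went from 10.90 ± 0.48 with none to 10.59 ± 0.65 with Pax5, less than the SD of either. Of the 40 combinations 1 was called, and the median size was 0.16 cycles.

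**Figure D4:**
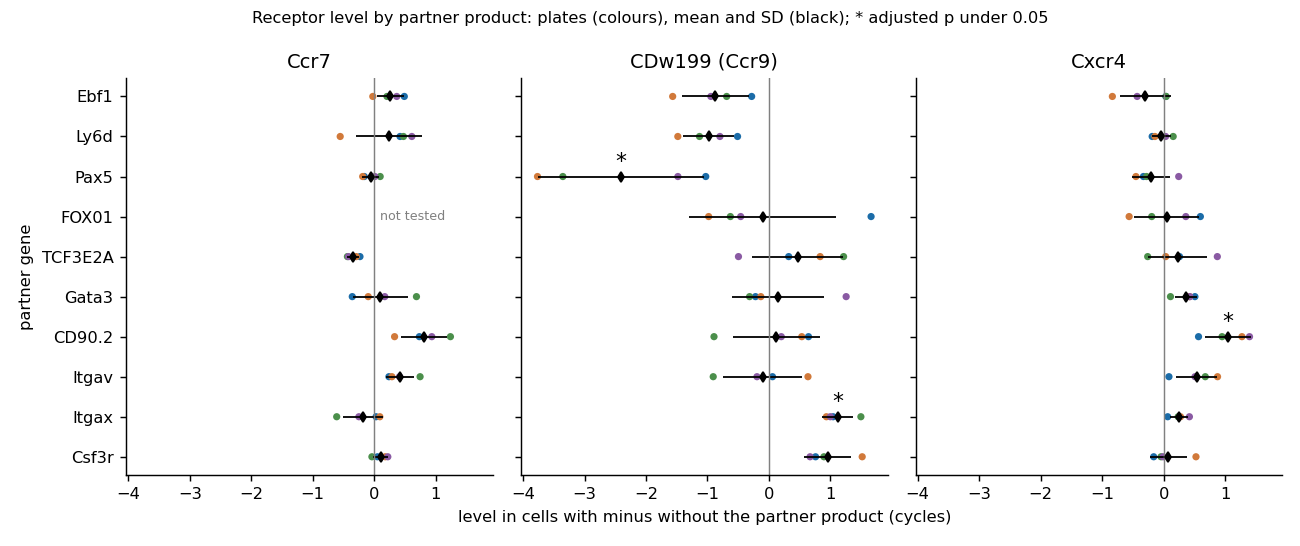
Level of each receptor in cells with minus without a product of 10 partner genes (cycles); coloured points are plates, black diamonds and lines the mean and SD, and asterisks an adjusted p under 0.05. CDw199 is lower with Pax5 (-2.41 ± 1.35) and higher with Itgax (1.12 ± 0.26), Cxcr4 is higher with CD90.2 (1.05 ± 0.37), and no Ccr7 combination is called.

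A stricter reading counted a gene as present only below its lowest no-RT Ct. CDw199, present in that way in 2.88% of cells, fell under the 5% minimum, while Cxcr4 entered with 20 cells (5.76%). A cell with background product alone can also fall below the lowest of 16 no-RT wells. These 20 cells are therefore not shown to hold a Cxcr4 transcript, and their pairs are given as description. Of 1275 pairs, limma called 2.59% higher and 1.49% lower. Cxcr4 had 3 called higher, among them those with CD90.2 and with H2-M3, a class Ib MHC gene present in 4 of the 20 cells. The H2-M3 level was 1.56 ± 0.28 cycles, near the Ct limit for a product. With any Ct below 40 as a product, its pair with Cxcr4 was no longer called. CD90.2 was present in 12 of the 20 Cxcr4 cells, where independence within plates gives 4.90. P1 held none of the 20 cells, so its log2 odds ratio comes from the added 0.5 and not from Cxcr4 cells, and no p-value over 4 plates is given for these pairs. Over the 3 plates with such cells, CD90.2 was at 2.39 (adjusted p = 0.0921) and H2-M3 at 1.85 (adjusted p = 0.126), and neither was called. Without P0 or without P3, 0 pairs of the receptors were called.

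Without the no-RT filter, a setting added after the data were seen, CDw199 and Cxcr4 could be paired as they stand. Of 1485 pairs 3.3% were called higher and 1.48% lower, and 12 of the calls involved CDw199 or Cxcr4. Both products were found in 286 cells and neither in 9, a log2 odds ratio of 2.83, 2.85, 4.09 and 3.41 on P0 to P3 (mean 3.29 ± 0.60, adjusted p = 0.00376). It kept its call without P1, P2 or P3 (adjusted p 0.0136 to 0.0438), and without P0 Cxcr4 was in too many cells to enter. CDw199 was also found more often with Nfil3 (2.44 ± 1.44), itself an assay with a no-RT product, and with Hoxa9 (1.82 ± 0.49), and less often with Cd38 (-1.81 ± 0.62). These 3 calls were lost without any 1 plate. With Pax5 it was -1.38 ± 0.35 (adjusted p = 0.0924).

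The 8 other Cxcr4 calls were all higher and included Cd34 (3.88 ± 1.63), Cd244a (3.51 ± 1.25), Cd72 (2.96 ± 1.34) and Hoxa9 (2.41 ± 0.99). They rest on 19 cells without a Cxcr4 product. Without P2, Cd34 and Cd244a kept their calls, and without P1 or P3 none of the 8 did. Those cells had a product for 34.7 ± 3.58 other assays against 41.9 ± 0.53 in the rest, and a reference gene level of 13.28 ± 1.01 against 15.34 ± 0.28 cycles. Cells without CDw199 had 39.4 ± 1.55 other assays against 41.9 ± 0.31, with a reference gene level of 14.14 ± 0.79 against 15.33 ± 0.20. For Ccr7 the gap was the smallest, 40.7 ± 0.81 against 42.2 ± 0.23 assays and 14.99 ± 0.27 against 15.28 ± 0.20 cycles. Missing Cxcr4 and CDw199 thus went with a low yield of the whole well, and the part of yield in these pairs was not tested beyond the split by number of assays, under which CDw199 with Cxcr4 was 3.19.

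Across cells with both products, the likeness of each receptor to other assays was described by the mean over plates of Spearman's rho of the levels, which shares well, yield and pre-amplification among all assays. Ccr7 was most like Notch1 (0.374), Cd180 (0.341) and Fli1 (0.337) and least like Gfi1 (0.023), Ly86 (0.007) and Hhex (-0.010), over 119 to 242 cells. The highest values stood only modestly above its median of 0.208 over 41 assays. Of the B lymphoid list, FOX01, the called partner in co-detection, was at 0.080 and Ebf1 at 0.104. Cd24a was at 0.177 and Ly6d at 0.198, also below that median, and Bcl11a at 0.314 lay above it. CDw199 was most like Nfil3 (0.416), Mef2c (0.398) and Id2 (0.369), and least like FOX01 (-0.206), Ebf1 (-0.135) and Ly86 (-0.081), with a median of 0.181 over 46 assays. Of the other B lymphoid list members described in this way, Ly6d was at -0.022, Cd24a at 0.070 and Bcl11a at 0.188, the last near the median. Cxcr4 was most like the reference genes Atp5a1 (0.646) and Hprt (0.580) and Ikzf1 (0.582), and least like Ly6d (0.081), Ebf1 (0.090) and FOX01 (0.102), with a median of 0.318 over 51 assays. Other B lymphoid list members lay above that median, Cd24a at 0.492, Bcl11a at 0.390 and Pax5 at 0.379, and TCF3E2A lay below it at 0.211. Among the receptors, rho was 0.285 for CDw199 and Cxcr4, 0.245 for Ccr7 and Cxcr4, and 0.191 for Ccr7 and CDw199.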

How the data were processed

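Sorted cells were lysed and frozen in the plate, and cDNA was made and pre-amplified there with all 96 assays before the read on a BioMark HD, per the labels' protocols. In no-RT wells Taq alone replaced the enzyme mix. The values are Ct, cycle numbers that the authors deposited without normalization. The Ct software and threshold, not given in the sources used here, could not be checked. A Ct of 40 stands for no product, and 22 of 36864 values lay between 28 and 40. Columns were matched to samples by title, with 0 left unmapped. Names were matched to a RefSeq gene table (GRCm38.p6): 47 assays by symbol, 34 by synonym and 15 not, CDw199 among the last. Sequences and positions of the assays were not used here, and results of some genes that the rules take are not reported here.

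A cell was kept if over 50% of the reference genes had a product and its number of assays reached 50% of the plate median. Shares and mean levels were summarised per plate and tested with limma 3.58.1 in R 4.3.3 (Benjamini-Hochberg, threshold 0.05): cells against no-RT wells on arcsine square root shares (88 assays) and on the level (7 assays with a no-RT product on at least 3 plates). Co-detection (0.5 added to each count) and level by partner (at least 5 cells on each side on every plate) were tested against 0 across the 4 plates. Partners were named if called with the same sign on all plates, up to 5 per direction, or if in the B lymphoid, T lymphoid or homing list; for likeness, the 3 highest and 3 lowest assays with at least 20 cells on every plate were named. Csf3r, Gfra2, Hoxa9, Bst2, Cd68 with Ccr7 and CDw199 with Pax5 without the no-RT filter were named after their values were seen. The receptors, lists and tests were chosen with earlier results of these data known. The plate is shared by cells and no-RT wells and so pairs them; their deviations on a plate correlated between -0.190 and 0.0535 over 88 assays. Alternatives were other Ct limits, no quality control, each plate left out, the plate as a block, other pseudocounts, detection ranges and no-RT bars, centring, and covariates; the median level and the pairs without the no-RT filter were added after the data were seen. The tests were also tested on simulated data.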

Additional observations from a re-analysis of the deposited data

Results flagged for a closer look

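Of 23 groups of 4 plates examined, 4 held a plate far from the other plates; chance alone would set apart about 1 in 20. The P0 well with 10 cells had a Ct of 40, no product, for Ccr7, CDw199 and Cxcr4, while the 10-cell wells of P1 to P3 had a product of all 3. That well had a product for 29 assays, against 68 to 71 in the other 10-cell wells, so all 3 values belong to 1 well. For Cxcr4, the share of no-RT wells with a product was 100% on P0 and 75.0% on each other plate, a difference of 1 well of 4.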

How the results depend on the processing

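Over all alternatives, 259 values kept direction and side of the threshold or moved little, 53 lost a call, 8 gained one, 5 changed sign and 29 counts moved by over 1.5 times; where not said otherwise the cause was not tested. Ccr7 stayed called above no-RT in all 10 alternatives. The difference in CDw199 detection ranged from -7.79 to 5.14 points without 1 plate (0.19 without P0, 5.14 without P2), that of Cxcr4 from 10.1 to 21.2, and against the exact upper limit Cxcr4 was at -6.42. The Cxcr4 level difference ranged from -0.069 (without P3; -0.022 without P2) to 1.01. With the plate as a replicate block no call changed: the paired adjusted p was 1.18e-05 for Ccr7 detection, 0.482 for CDw199, 0.356 for Cxcr4, and 0.489 and 0.671 for the CDw199 and Cxcr4 levels. Calls with Ccr7 went from 1 to 14 without quality control, where empty wells count as cells, and to 0 without any 1 plate. Above the no-RT level, calls with any receptor (4, FOX01 with Ccr7 included) were 23 without quality control, 13 with a pseudocount of 1, 13 with cells split by number of assays, 7 with the bar of the same plate, 1 with a bar 1 cycle lower, where Cxcr4 no longer entered, 1 with genes in 10% to 90% of cells, and 0 to 3 without 1 plate. Without the no-RT filter, the 12 calls became 61 without quality control, 27 with a pseudocount of 1, 31 with split cells, 2 with Ct below 24, 3 with genes in 10% to 90% and 0 to 3 without 1 plate. The 3 calls of level by partner became 1 centred on reference genes, 0 by medians and 0 without any 1 plate. With 4 plates and 4 no-RT wells on each, a share moves in steps of 25 points in no-RT wells, so small differences from them could not be seen.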
